A study of Mus musculus with 62 samples.

Results

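Pu.1 occupancy was compared between Daxx-KO and WT haematopoietic stem and progenitor cells (HSPCs) at 3 weeks post induction (w.p.i.) of the Cre recombinase. Of 161128 genomic sites listed for this comparison, the 156645 on autosomes were taken, out of 653416 autosomal sites in the 4 tables examined. A site was called gained where the values of both Daxx-KO libraries exceeded those of both WT libraries, and lost where both fell short of them. By this order 84810 sites (54.1%) gained and 68883 (44.0%) lost Pu.1, and 2952 (1.88%) did neither. The gained sites covered 73.7 Mb and the lost sites 53.6 Mb. As a site is listed only after it passed a test of these same 4 libraries, the order of the libraries is a description and not a second test.

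There were 2 libraries per group, out of 62 in the series. The WT mice were Daxx +/+; Cre +/- and the Daxx-KO mice Daxx F/F; Cre +/-, so all 4 carried Cre, on a C57BL/6 background. The floxed allele removes exons 2 to 7 of Daxx, which encodes a histone chaperone that deposits the variant H3.3. The study used an inducible Cre from the Mx1 promoter, switched on by pI:pC, and a tamoxifen-dependent Cre at the Rosa26 locus, and the labels do not name the driver for these mice. Their ages are not given in the labels. The cells came from bone marrow, depleted of lineage-positive cells and enriched for c-Kit on magnetic beads, and are a mixture of stem cells and committed progenitors. In such a mixture, a change in the share of a cell type and a change within each cell cannot be told apart. No library with a control antibody or from Pu.1-deficient cells was set against the Pu.1 libraries, and the level of nonspecific signal is therefore unknown.

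Pu.1, encoded by Spi1, is an ETS-family transcription factor. It binds a purine-rich motif around GGAA, opens chromatin at enhancers and promoters of myeloid genes, and is needed for the neutrophil and monocyte lineages and, at lower levels, for B cells. With CEBP and RUNX factors it acts on genes of growth factor receptors, adhesion molecules and granule enzymes. CUT&Tag maps its position through an antibody that tethers the transposase Tn5, which cuts and tags the DNA nearby.

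The words that follow were read from the RefSeq genome of GRCm38 (mm10), and site positions are on the same build. The 6 promoter sites shown first were picked because they hold a Pu.1-like word, and they fall into both directions. Most promoter sites of the gene lists do not hold it: GAGGAAGT was in 7 of 83 gained and 4 of 28 lost ones. Capitals mark GAGGAAGT, or GGAAGT for Spi1, and each line runs 5′ to 3′ on the strand given. The promoters with GAGGAAGT other than those of Itgb2 and Prtn3 were chosen after their values had been seen.

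Itgb2, lost, chr10:77530291-77530320, minus strand: tcagcgcccagGAGGAAGTtgagtgacatt
S100a8, lost, chr3:90668863-90668942, minus strand: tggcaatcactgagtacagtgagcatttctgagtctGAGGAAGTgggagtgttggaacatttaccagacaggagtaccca
Prtn3, gained, chr10:79879561-79879590, plus strand: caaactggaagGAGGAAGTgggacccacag
Elane, gained, chr10:79886216-79886245, plus strand: cgtgtcccaggGAGGAAGTagggctgtggc
Csf2rb, gained, chr15:78325971-78326000, minus strand: gagagcagattGAGGAAGTtgccagtgccc
Spi1, gained, chr2:91096653-91096680, minus strand: cttgcgctacaGGAAGTctctggccggc

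The next pair comes from distal sites among the largest losses and shows the same word away from promoters.

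Pkp4, lost, chr2:59261752-59261831, minus strand: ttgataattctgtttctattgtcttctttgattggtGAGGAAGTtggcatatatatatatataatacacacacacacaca
Pard3b, lost, chr1:61969189-61969268, plus strand: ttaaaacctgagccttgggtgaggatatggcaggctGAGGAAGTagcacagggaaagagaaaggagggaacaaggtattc

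The last pair is the centre of a promoter site with a large gain and of the lost promoter site with the largest separation between the groups. Here capitals mark CG dinucleotides, of which the first stretch holds 8 and the second 0.

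Rufy2, gained, chr10:62980510-62980589, plus strand: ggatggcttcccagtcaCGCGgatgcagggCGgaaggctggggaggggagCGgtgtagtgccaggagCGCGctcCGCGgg
Olfr750, lost, chr14:51074835-51074914, plus strand: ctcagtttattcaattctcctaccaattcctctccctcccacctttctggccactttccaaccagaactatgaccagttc

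The libraries were of unequal depth. Mean reads per 600-bp window were 11.35 and 11.99 in the Daxx-KO libraries but 33.78 in WT 1 and 2.75 in WT 2. All values below are normalized counts, the reads of a site divided by a constant of its library, and are given in the order Daxx-KO 1, Daxx-KO 2, WT 1, WT 2. WT 1 stood apart: its mean after scaling was 17.7 per window against 8.87 to 9.75 in the other libraries, and its spread over windows was 0.80 times its mean against 1.24 to 1.48 times. In WT 2, 1 read is worth 3.20 normalized counts and a count of 0 allows up to 9.59. When the libraries were scaled to equal mean reads per window instead, the log2 ratio of all sites moved up by a median of 0.37, 84416 gained and 50353 lost sites kept their order, and none was reversed.

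At gained sites, median levels in normalized counts were 64.6 and 64.0 for Daxx-KO, compared with 29.8 and 19.2 for WT. At lost sites they were 20.5 and 21.1 for Daxx-KO, compared with 58.5 and 57.5 for WT. Under the deposited scaling, the medians of the genotype with more Pu.1 were thus similar in both directions. This likeness depends on the scaling, which left WT 1 with a mean of 17.7 per window against 8.87 to 9.75 in the other libraries. The median log2 ratio of group means, with a pseudocount of 1, was 1.44 for gains (quartiles 1.14 and 1.80) and -1.55 for losses (quartiles -2.05 and -1.20).

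**Figure D1:**
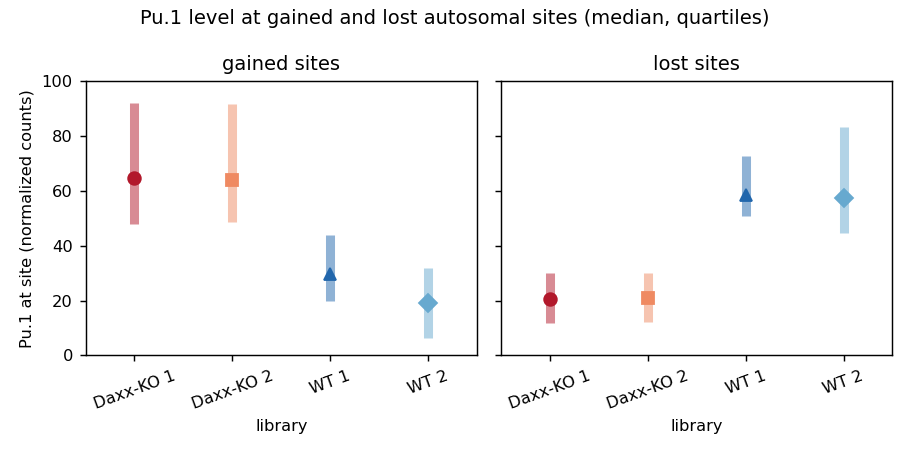
Normalized counts per autosomal site (vertical axis) at gained sites (left) and lost sites (right) in each of the 2 Daxx-KO and 2 WT libraries, with the median as a point and the quartiles as a bar. At gained sites, the quartiles of WT 2 span 6.39 to 32.0 and those of Daxx-KO 1 48.1 to 92.2, and the order of the genotypes is turned at lost sites.

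Whether losses or gains were better separated depended on the scaling and on the lower limit of the values. Separation was defined as the lowest library of the higher group over the highest of the lower group, with the latter set to no less than 3 reads. It was 2 or more at 36203 lost sites (52.6%) but at 27263 gained sites (32.1%). With libraries scaled by mean reads per window, an alternative chosen after seeing the data, the order was turned, with 11978 lost (23.8%) and 59252 gained sites (69.9%). At a separation of 10 there were 1172 lost and 37 gained sites. The limit of 3 reads is 9.59 normalized counts for WT, set by WT 2, and 2.43 for Daxx-KO, so that a gain needs a higher level than a loss to reach this separation. With 9.59 as the limit for both genotypes, also chosen after seeing the data, 4 lost and 37 gained sites reached 10. This limit did not alter the counts at a separation of 2, because each WT library held at least 35.2 at every lost site. The counts at a separation of 2 given for gene lists rest on the deposited scaling.

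The spread between libraries of one genotype differed by direction. At gained sites, the median log2 difference between the WT libraries was 0.97 and that between the Daxx-KO libraries 0.23. At lost sites the order was turned, with 0.34 for WT and 0.61 for Daxx-KO. At 65.8% of gained and 88.0% of lost sites, the difference between groups exceeded both differences within groups. WT 2 was at 0 at 16.7% of gained sites, compared with 2.66% for WT 1. Very high occupancy was on the gained side, where 334 sites reached a Daxx-KO mean of 500 or more, while 18 lost sites reached this level in WT. An exact two-sided permutation test of 2 libraries against 2 allows no p below 0.333 at a single site, so all 4 values are given instead.

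Gained Pu.1 sites lay nearer to genes than lost sites. Promoter sites, within 1 kb of the TSS of a protein-coding gene, made up 9.72% of gained sites (8246, 95% Wilson interval 9.53 to 9.92) and 3.04% of lost sites (2096, 2.92 to 3.17). Over 600-bp tiles of the autosomes this share was 2.72%. Without WT 1 the shares were 9.71% and 3.34%, and without WT 2 9.85% and 3.05%. Exons held 7.70% of gained and 2.72% of lost sites, introns 42.4% and 44.6%, and intergenic sequence 40.2% and 49.6%. These intervals cover counting error only, since PCR copies can stem from one molecule and neighbouring sites share their libraries.

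The difference was steepest at the TSS itself. Within 250 bp of a TSS there were 5902 gained and 1024 lost sites, and the TSS lay inside the site in 4628 and 627 cases. Beyond 50 kb and up to 500 kb, lost sites were more numerous, with 30743 against 23093. The median distance to a TSS was 20695.5 bp for gains and 46187 bp for losses. At promoters, medians were 73.3, 71.3, 31.9 and 19.2 normalized counts at gained sites and 24.4, 23.5, 59.0 and 63.9 at lost sites.

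**Figure D2:**
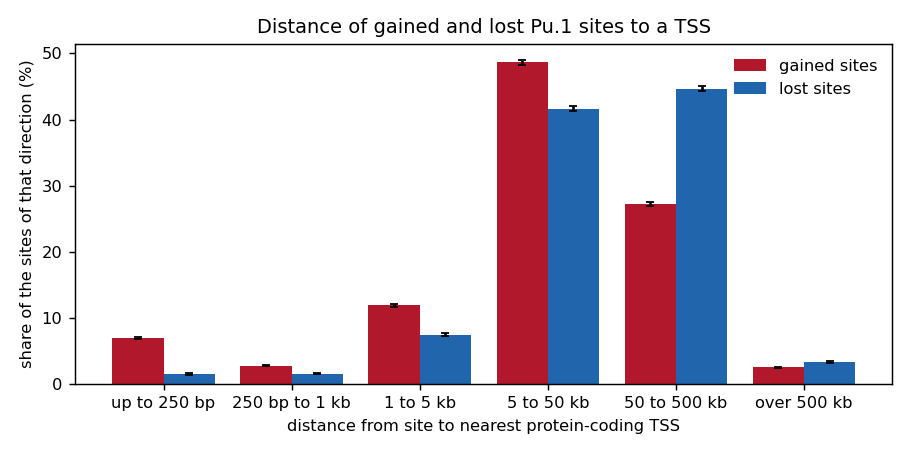
Share of gained and of lost autosomal Pu.1 sites (vertical axis, percent) by distance to the nearest protein-coding TSS, with Wilson 95% intervals. Sites within 250 bp are 6.96% of gains and 1.49% of losses, and sites at 50 to 500 kb are 27.2% of gains and 44.6% of losses.

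Base composition moved with direction. The median GC content was 51.1% for gained and 46.8% for lost sites, compared with 41.8% for tiles of the autosomes. Of gained and lost sites together, gains were 24.5% below 40% GC, 44.9% at 45 to 50% GC and 98.0% at 60% GC and above. The 4 libraries went in different directions along this scale. From the lowest to the highest GC bin, the median rose from 15.0 to 80.3 in Daxx-KO 1 and from 17.8 to 74.6 in Daxx-KO 2. It fell from 51.2 to 30.3 in WT 1 and from 44.8 to 25.6 in WT 2.

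Within the GC bins from 50% on, promoters and other places differed far less than without bins. Without bins, gains were 79.7% of promoter sites and 55.2% of all sites with a direction. At 50 to 55% GC, gains were 70.6% of promoter sites (68.7 to 72.4) and 68.4% of other sites (67.9 to 68.8). At 55 to 60% GC the order was turned, with 88.7% and 90.8%, and at 60% GC and above the shares were 97.8% and 98.2%. The largest differences were at low GC, with 45.9% of 61 promoter sites against 24.1% of other sites below 40% GC. The part of GC content in the promoter gains, and the part of library preparation in the GC trend, were not tested.

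**Figure D3:**
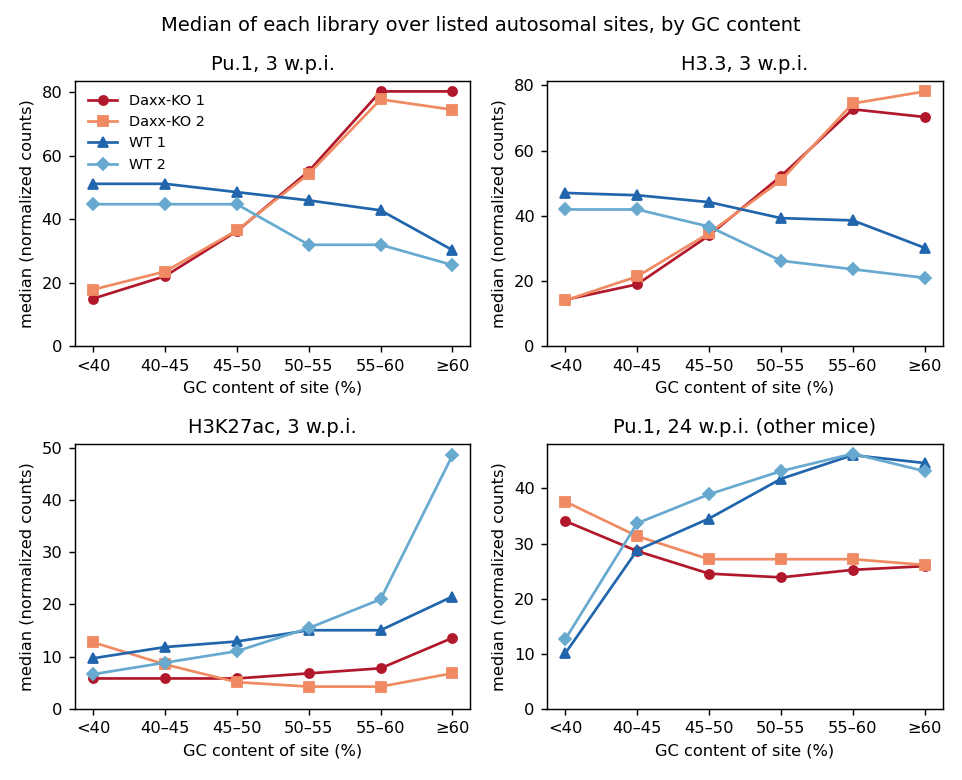
Median normalized count (vertical axis) over the autosomal sites of 4 tables (panels) in bins of GC content (horizontal axis, percent), with a line for each library. For Pu.1 at 3 w.p.i. the Daxx-KO lines climb to 80.3 and 74.6 and the WT lines descend to 30.3 and 25.6, H3.3 runs alike, and Pu.1 at 24 w.p.i. is turned. For H3K27ac the WT lines climb from 9.67 to 21.5 and from 6.62 to 48.5.

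Gains also prevailed in repeats, and their share differed by chromosome. Among sites masked as repeats over at least 90% of their length, 6125 gained and 819 lost Pu.1. Gains were 43.4% of the gained and lost sites on chromosome 1 and 70.3% on chromosome 11. Reads from repeats can map to several copies, so that a position in such sequence is uncertain.

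The Pu.1 word was less frequent at gained than at lost sites. GAGGAAGT, searched on both strands in the central 600 bp, was found in 3.74% of gained (3168, 3.61 to 3.87) and 4.83% of lost sites (3326, 4.67 to 4.99). Of the 600-bp tiles, 3.64% held it. Without WT 1 the word was in 3.73% and 4.84% of sites. From 45 to 50% GC the shares were 3.94% of gained sites, 5.24% of lost sites and 4.49% of tiles. Lost sites thus stood above the tiles and gained sites below them at equal GC in this bin. The same order was seen in the other bins from 40 to 60% GC. At 50 to 55% GC, however, the interval of lost sites (4.75 to 5.50) held the 4.80% of tiles. Below 40% and from 60% GC on, where 126 lost sites were left, both groups were below the tiles.

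**Figure D4:**
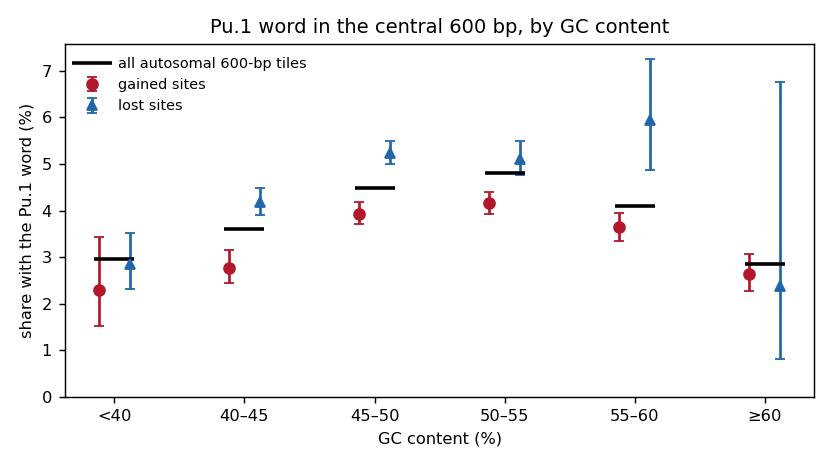
Share of sites with GAGGAAGT in the central 600 bp (vertical axis, percent) by GC content for gained sites, lost sites and autosomal tiles, with Wilson 95% intervals for the sites. At 55 to 60% GC the word is in 3.64% of gained sites, 5.95% of lost sites and 4.10% of tiles.

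Well separated gains held the word less often still. At a separation of 5 or more it was in 12 of 708 gained sites (1.69%, 0.97 to 2.94) and 216 of 4835 lost sites (4.47%, 3.92 to 5.09). The lower limit used for separation differs between the directions, so these sites were selected at unlike levels. Of the 334 gained sites with a Daxx-KO mean of 500 or more, 3 held it, and a median 42.4% of their length was masked as repeat. At promoters, 284 of the 8246 gained sites (3.44%, 3.07 to 3.86) and 110 of the 2096 lost sites (5.25%, 4.37 to 6.29) held GAGGAAGT, and 3.74% of promoter tiles did.

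Over all sites, words of other factors went the same way, with 1 exception. The shorter ETS word GGAAGT, which is contained in GAGGAAGT, was in 29.0% of gained and 34.0% of lost sites (tiles 30.4%). AP-1 TGANTCA was in 13.3% and 18.1% (tiles 17.0%), AGATAAG, a word of GATA factors, in 5.04% and 7.74% (tiles 8.68%), and RUNX TGTGGTTT in 3.12% and 4.33% (tiles 5.12%). CEBP TTGCNNAA was in 17.0% and 20.3% (tiles 25.6%), and the composite word of Pu.1 and IRF factors (EICE) in 3.95% and 4.91% (tiles 6.53%). The exception was CCGGAAGT, a word of other ETS factors at CpG-rich promoters, in 0.922% of gained and 0.544% of lost sites (tiles 0.380%), which also contains GGAAGT. At 55 to 60% GC, however, CCGGAAGT was in 1.28% of gained and 1.92% of lost sites, and CEBP TTGCNNAA was turned as well, with 15.8% of gained and 13.2% of lost sites (tiles 14.6%). The tiles have a lower GC content than the sites, and the place of lost sites beside the tiles changed within bins. At 45 to 50% GC, AGATAAG was in 6.13% of gained and 7.67% of lost sites (tiles 7.48%). TGTGGTTT was in 3.87% and 4.32% in this bin (tiles 4.19%), so that lost sites were not below the tiles there for these words. A word is a description of the sequence and not a bound site.

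A site was counted for the protein-coding gene whose TSS was closest. Over all 20780 autosomal genes, 52.0% had more gained than lost sites and 26.5% more lost than gained sites. A gained promoter site was found at 33.6% of genes and a lost one at 9.39%. Counts for 12 lists of 202 genes are set beside these shares.

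Spi1, the gene of Pu.1, had sites in both directions. Its promoter site at chr2:91096301-91096950, just downstream of the TSS, held 60.7, 49.5, 29.8 and 25.6 normalized counts, with the genotypes not overlapping. A further site at chr2:91097901-91098550, in an intron, was at 61.4, 51.1, 27.7 and 19.2. The group means of these sites were 1.99 and 2.40 times as high in Daxx-KO as in WT. At chr2:91083751-91084400, 11696 bp upstream of the nearest TSS, Pu.1 was lost, with 28.4, 21.1, 73.1 and 44.8. Of these 3 sites, only the promoter site held GGAAGT.

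Daxx had 1 site, a gain across its TSS at chr17:33909201-33909900, with 59.9, 103, 32.4 and 28.8 normalized counts. It ends before the floxed exons, so that the deletion could not be checked with the Pu.1 libraries. H3.3 was gained here and H3K27ac lost, at 24.2, 13.6, 65.6 and 105 over a site that reaches into the floxed exons.

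Myeloid transcription factors were occupied by Pu.1 in both directions, with 252 gained and 260 lost sites for 20 genes. The excess of losses became an excess of 65 gains with libraries scaled by mean reads per window. Of the 20 genes, 11 had a gained promoter site and 3 a lost one. Over all lists there were 83 gained and 28 lost promoter sites, of which 7 and 4 held GAGGAAGT. Gains outnumbered losses at Cebpe (9 and 2), a factor of granulocyte maturation.

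At the Egr1 promoter, Pu.1 was at 121, 79.4, 24.0 and 0 normalized counts. Egr1 is an immediate early factor that acts with Pu.1 in macrophage differentiation, and all its 6 sites were gains. Nfe2, a factor of megakaryocytes and erythroid cells, had 3 gained sites, all at promoters. Runx1, which acts upstream of Spi1, had the most gains of the list, 44 against 17 losses, with 3 promoter gains. At its gained site with the largest separation, 154252 bp from a TSS, the values were 37.02, 59.99, 6.79 and 0.

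Losses were more numerous at other regulators. Maf, a leucine zipper factor of macrophages and T cells, had 33 gained and 58 lost sites. A distal site of Maf at chr8:115878701-115879300 was at 3.15, 0, 46.0 and 51.1. Junb, an AP-1 factor, lost Pu.1 at its promoter, with 36.2, 43.8, 78.4 and 102, a site whose order was lost with the other scaling.

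Myeloid receptors and Pu.1 target genes had 108 gained and 79 lost sites, but 7 more losses than gains at a separation of 2 or more. Of 23 genes, 5 had a gained and 4 a lost promoter site. The receptor genes of growth factors differed among themselves. Csf2ra and Csf2rb, the receptor chains of GM-CSF, had 3 and 6 gained sites and no loss. Csf3r, the G-CSF receptor gene, had 23 of each, and Csf1r, the M-CSF receptor gene, 6 gains and 10 losses. Neither had a gained or lost promoter site. The best separated Csf3r sites lay 38750 bp (gained) and 212400 bp (lost) from the TSS.

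The Itgb2 promoter, shown above, lost Pu.1, with 7.88, 4.86, 63.2 and 57.5 normalized counts at chr10:77529801-77530800. Itgb2 encodes the shared chain of leukocyte integrins. Its group means differed by 9.48 times, and H3K27ac was also lower in Daxx-KO at a site overlapping it, with 64.9, 59.5, 93.5 and 137. The promoter of Sirpa, an inhibitory receptor of myeloid cells, gained Pu.1, with 55.1, 143, 18.8 and 0, where H3K27ac was lost. The Csf2rb site with the Pu.1 word was at 55.1, 68.9, 48.1 and 0, where WT 1 came close to the Daxx-KO libraries.

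Neutrophil granule genes had 30 gained and 32 lost sites, and 8 more gains than losses with libraries scaled by mean reads per window. Promoter losses were found at 7 and promoter gains at 6 of 15 genes, with both at 3 of them. The serine protease genes of primary granules, which lie in a cluster on chromosome 10, gained Pu.1 at their promoters. Prtn3 (proteinase 3) was at 91.4, 110, 42.8 and 0 normalized counts, and Elane (neutrophil elastase) at 47.3, 44.6, 20.4 and 32.0. WT 2 was at 0 at the first and higher than WT 1 at the second. Ctsg, a protease gene outside this cluster, had a lost promoter site.

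Genes of later granules and cytosolic proteins were split. At S100a8, a subunit of calprotectin, the promoter site was at 30.7, 40.5, 90.9 and 83.1, with H3.3 also lost there, at 14.2, 47.2, 105 and 212. Ngp, a secondary granule gene, had 2 gained and 3 lost sites, with 1 promoter site in each direction. The lost promoter site was at 10.2, 0.81, 48.1 and 38.4. Mpo, the myeloperoxidase gene, had 6 gains and 4 losses and no promoter site.

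**Figure D5:**
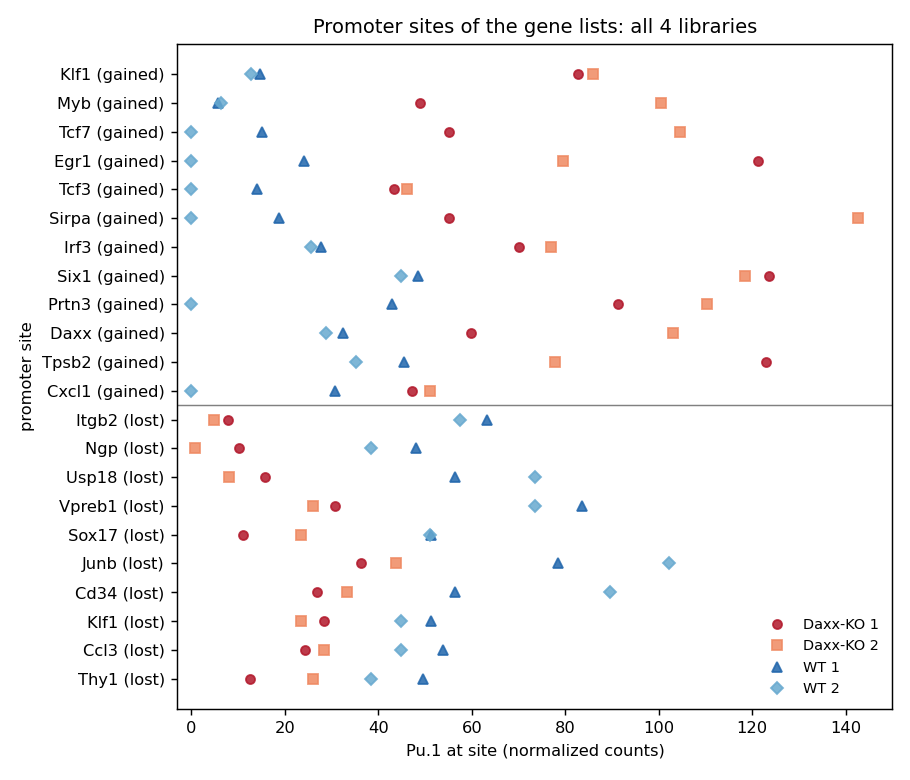
Pu.1 in normalized counts (horizontal axis) in each of the 4 libraries (symbols) at the best separated gained and lost promoter site of each list (rows, ordered by separation within a direction). WT 2 is at 0 at 6 of the gained promoters, and at Thy1 the Daxx-KO libraries lie at 12.6 and 25.9 against 49.6 and 38.4 in WT.

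Stem and progenitor regulators had 194 gained and 172 lost sites, with the balance turned at a separation of 2 or more (26 more losses). A gained promoter site was found at 9 of 20 genes and a lost one at 2. Myb, needed for definitive haematopoiesis, was at 48.8, 100.52, 5.75 and 6.39 normalized counts at its promoter, 12.3 times as high in Daxx-KO as in WT. The WT 2 value is below the limit of 3 reads (9.59), which makes this ratio uncertain. Zfpm1, a cofactor of GATA factors, had 45 gained and 13 lost sites, and the site with the largest separation was at 168, 152, 48.1 and 12.8. Mecom and Cd34, both markers of immature cells, went the other way. Mecom had 8 gained and 26 lost sites, Cd34 1 and 16, and an intronic Mecom site was at 4.73, 0, 46.0 and 38.4.

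The lymphoid lists were mixed. B-lineage genes had 129 gained and 139 lost sites (25 more gains than losses with the other scaling), and 11 of 21 genes had a gained promoter. Ikzf1, which encodes Ikaros and was chosen after its values were seen, was at 87.4, 38.9, 15.7 and 19.2 at its promoter site with the Pu.1 word. The promoter of Tcf3, the E2A gene, was at 43.3, 46.2, 14.1 and 0. Bcl11a, needed for early B cells, had 22 gained and 40 lost sites, and the surrogate light chain gene Vpreb1 had 1 of each, both at promoters. T-lineage genes had 177 gained and 149 lost sites, but 9 more losses at a separation of 2 or more. Tcf7, a T-cell specification factor, had a gained promoter with 55.1, 105, 15.2 and 0.

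Erythroid and megakaryocyte genes had 53 gained and 16 lost sites, and 11 of 15 genes had more gains than losses. Of these genes, 7 had a gained promoter site and 1 a lost one. The median GC content of these sites was 51.7%, against 48.9% over all genes. Slc4a1, the anion exchanger of red cells, had 10 gains and no loss, and its best separated site was at 75.6, 88.4, 26.6 and 0 normalized counts. At Klf1, a master regulator of erythroid genes, a gained site with 82.7, 85.9, 14.6 and 12.8 overlapped a lost site with the Pu.1 word, at 28.4, 23.5, 51.2 and 44.8. The lost site did not keep its order with the other scaling.

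Mast cell and basophil genes had 15 gained and 28 lost sites, of which Mitf, the melanocyte and mast cell factor, held 5 and 19. Within gene bodies or 10 kb this list had as many gains as losses. Interferon and RNA-sensing genes had 45 gained and 38 lost sites and inflammatory cytokine genes 36 and 26, each turned to 5 more losses at a separation of 2 or more. Irf3, an effector of RNA sensing, had a promoter gain with 70.1, 77.0, 27.7 and 25.6. Usp18, an inhibitor of interferon signalling, had a promoter loss with 15.8, 8.11, 56.4 and 73.5. The genes of H3.3 and its chaperones had 21 gained and 7 lost sites.

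Developmental regulators of other tissues, with their main roles outside blood, had 130 gained and 185 lost sites, or 6 more gains within gene bodies or 10 kb. Foxa2, a factor of endoderm, had 6 gained and 39 lost sites, with a distal one at 0.79, 0, 51.7 and 44.8. This list thus had sites of both directions, as the haematopoietic lists did. Markers of the cell types that the enriched cells could hold had sites of both directions too, with 100 gained and 114 lost for 9 HSPC markers, 15 and 16 for 7 neutrophil markers and 9 of each for 4 erythroid markers. There were 13 of each for 5 monocyte and macrophage markers and 40 of each for 4 T-cell markers. Losses were more numerous for 4 B-cell markers (29 gained and 37 lost) and 3 mast cell markers (6 and 20). Pu.1 sites do not measure expression, so the labelled cell type could not be checked from them.

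The gained sites with the largest separation had high levels in Daxx-KO, which the limit of 9.59 for WT favours in this ranking. Among sites masked over less than 50% of their length, the first 10 held between 293 and 4628 normalized counts per Daxx-KO library and between 6.39 and 185 per WT library. None held GAGGAAGT, all were outside promoters, and 9 overlapped a gain of H3.3 alone. The highest was in an intron of Nalcn, a sodium leak channel gene, with 3203, 4628, 64.8 and 6.39. A site 17197 bp from Cldn5, a tight junction gene, was at 1836, 1178, 81.0 and 32.0.

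The losses with the largest separation were sites with almost no reads in Daxx-KO. The first 10 held 0 to 3.15 normalized counts in Daxx-KO and 64.8 to 121 in WT, with a GC content of 37.1 to 46.0%, a range that overlaps the 36.7 to 48.5% of the first 10 gains. An intronic site of Gtdc1 was at 0.79, 1.62, 73.6 and 121. The sites of Pkp4 and Pard3b, cell junction and polarity genes whose sequences are shown above, held the Pu.1 word and were at 3.15, 1.62, 91.9 and 95.9 and at 1.58, 2.43, 65.3 and 70.3. Pu.1 at these places was within a few reads of none in both Daxx-KO libraries.

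The 10 gained promoters of largest separation had a GC content of 46.1 to 77.2% and the 10 lost ones of 34.2 to 46.9%, and none of these 20 promoters held GAGGAAGT. Hspa1a, an inducible heat shock protein gene, led the gains with 209, 161, 17.2 and 9.59. Rufy2, an endosomal adaptor gene, was at 70.1, 77.0, 9.40 and 9.59. Among losses, Olfr750, an olfactory receptor gene, was at 0, 1.62, 49.6 and 63.9. Ctsc encodes the protease that activates the granule serine proteases, and its promoter was at 2.36, 0.81, 47.5 and 109. Hecw2 was at 0 in both Daxx-KO libraries and at 53.8 and 38.4 in WT, which is at least 19.2-fold lower with 3 reads per library as the floor.

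Some genes had the closest TSS to many sites of one direction. Gm10330, Gm21863, Ywhaq and 5730507C01Rik lie between positions 18514510 and 23780265 of chromosome 12. They had 139, 117, 104 and 69 gained sites against 0, 7, 16 and 16 lost ones. The sites of each gene were spread over 1102.75 to 1294.6 kb, so these counts describe a wide region more than the genes themselves. Snurf, at an imprinted locus, had 66 gains and 1 loss, with a median 54.8% of a site masked as repeat. Gse1, a chromatin cofactor gene, had 74 gains and 7 losses with a median GC content of 56.2%, and Prex1, which encodes a Rac activator of neutrophils, 76 and 23. Losses collected at other genes. Cdh4 (a cadherin) had 50 gains and 162 losses, Prox1 (a factor of lymphatic endothelium) 12 and 70, and Kcnma1 (a potassium channel) 17 and 65. At the sites of Cdh4, medians were 28.4, 27.2, 65.3 and 78.3.

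For H3.3, the labels name the same mice as for Pu.1 for both Daxx-KO libraries and WT 2, and give WT 1 as wild type only in both tables. Of gained Pu.1 sites, 30.2% overlapped only H3.3 gains and 4.61% only H3.3 losses, and of lost Pu.1 sites 7.39% and 12.6%. The H3.3 table itself had 57.7% gained and 40.7% lost sites. H3.3 libraries shared these mice, the depth order and the GC trend of the Pu.1 libraries, with WT 1 at 22.88 and WT 2 at 3.06 reads per window. The part of these shared features in the overlap was not tested. Some named sites went opposite ways. The gained Csf2rb promoter overlapped a loss of H3.3, at 21.3, 11.8, 51.2 and 78.6. The lost sites of Spi1 and Klf1 overlapped H3.3 gains, at 45.01, 53.1, 29.5 and 26.2 and at 85.3, 117, 28.8 and 41.9. Each of these H3.3 sites covers only part of the Pu.1 site, at Spi1 only its end. The H3.3 site at Klf1 also overlaps the gained Pu.1 site there, in the same direction.

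H3K27ac came from other mice except for 1 WT mouse. Gained Pu.1 sites overlapped only H3K27ac gains at 3.77% and only losses at 8.72%, and lost sites at 4.13% and 7.66%, in a table with 39.2% gained and 58.4% lost sites. At gained Pu.1 promoters, 258 sites overlapped only an H3K27ac gain and 1300 only a loss. At lost Pu.1 promoters the numbers were 92 and 288. Gains were thus 16.6% (14.8 to 18.5) and 24.2% (20.2 to 28.8) of these overlaps, beside 23.1% of the 1624 gained and 5411 lost promoter sites of the H3K27ac table itself. Over all H3K27ac sites, gains fell from 58.2% below 40% GC to 37.8% at 45 to 50% GC and 9.40% at 60% GC and above. The median GC content was 58.5% at gained and 49.8% at lost Pu.1 promoters. The part of GC content in these shares was not tested. At the Prtn3 promoter H3K27ac was also gained, with 79.5, 28.9, 17.2 and 27.6. At Ikzf1 it was lost, with 45.5, 28.0, 89.2 and 141.

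At 24 w.p.i., Pu.1 was profiled in other mice, with 46.9% gained and 51.3% lost sites. Of the sites gained at 3 w.p.i., 12.5% overlapped only later gains and 18.5% only later losses, and of the sites lost, 11.9% and 16.3%. Among sites with a single later direction, gains were 40.2% (39.6 to 40.8) where Pu.1 had been gained and 42.2% (41.5 to 42.9) where it had been lost, so that later gains were no more frequent where Pu.1 had been gained earlier. The GC trend was turned at 24 w.p.i.: from the lowest to the highest GC bin, medians went from 34.1 to 25.9 and from 37.6 to 26.1 in the Daxx-KO libraries, and from 10.1 to 44.6 and from 12.6 to 43.2 for WT.

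Single genes were seen in both patterns. Elane and Prtn3 gained Pu.1 at both times, with 109, 79.4, 5.76 and 10.5 at Elane and 52.5, 157, 5.76 and 32.6 at Prtn3 at 24 w.p.i. The later Prtn3 site, chr10:79879801-79880650, overlaps the earlier site, chr10:79878951-79880050, only at its end. The Pu.1 word shown for Prtn3 lies outside the later site. Junb lost Pu.1 at both times and was later at 15.0, 4.18, 130 and 92.6. S100a8 and Usp18 went from loss to gain. The later S100a8 site, chr3:90669551-90670400, was at 96.8, 48.1, 0 and 10.5. It overlaps the earlier site, chr3:90668701-90669650, only at its end, and the Pu.1 word shown for S100a8 lies outside it. Sirpa went from gain to loss, with 15.0, 0, 59.0 and 42.1.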

How the data were processed

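CUT&Tag libraries of Pu.1 from 2 Daxx-KO and 2 WT mice at 3 w.p.i. were analysed. Per the submitters' processing notes, CASAVA 1.8.4, cutadapt 1.13, STAR 2.5.3 and bedtools were used with mm10. The signal of a site is a normalized count that the authors deposited for each library, made with diffReps 1.55.6 (windows of 600 bp, step 50 bp, fragment 100 bp, window cutoff 0.0001, negative binomial test) as reads divided by a library constant. Columns of the authors' averages, fold changes, p-values and directions were not used.

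Direction was taken from the order of the 4 libraries. No test across sites was made, as listed sites had been selected on the same contrast. Members and gene lists were chosen with earlier results of these data known. Genes named were, per list, those with most gained, most lost and best separated promoter sites, the 10 sites and 10 promoters of largest separation per direction, the 10 genes with the largest excess of sites per direction, Daxx and Spi1, and others said to be chosen after their values were seen. The genes of list counts named beside these (such as Csf1r) were also chosen so. Some members of the lists are not reported here by name. Distances, gene classes and tiles of 600 bp were from GENCODE M21 on GRCm38, which is mm10, and sequences from the RefSeq genome of the same assembly. Overlap was at least 1 bp. The low values were whole reads divided by the constant within 0.1 read. The labels give a mouse for every library but WT 1, which is labelled as wild type only. Python 3.11.15, numpy 2.4.6, pandas 2.3.3 and scipy 1.17.1 were used, and 12 of 12 checks on simulated data passed.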

Additional observations from a re-analysis of the deposited data

Results flagged for a closer look

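Pu.1 at 24 w.p.i. lay in the other direction at some sites and in the same direction at others. Of the sites gained at 3 w.p.i., 15696 overlapped only later losses and 10561 only later gains. Of the sites lost at 3 w.p.i., 8219 overlapped only later gains and 11262 only later losses. Later gains were 40.2% and 42.2% of these overlaps, beside 47.8% of all gained and lost sites at 24 w.p.i. At the sites of opposite direction, all libraries of a genotype moved one way at one time and the other way at the other time. The mice were different, and the difference between the times was not tested. The promoter of S100a8 is one such place, at 30.7, 40.5, 90.9 and 83.1 normalized counts at 3 w.p.i., in the order Daxx-KO 1, Daxx-KO 2, WT 1, WT 2. At 24 w.p.i., a neighbouring site that overlaps only its end was at 96.8, 48.1, 0 and 10.5 in the same order.

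The sex chromosomes were outside the comparison. On chromosome X, 4204 sites gained and 78 lost Pu.1, with medians of 54.4 and 55.9 for Daxx-KO against 15.2 and 22.4 for WT over all listed X sites. On chromosome Y, 84 sites gained and 6 lost Pu.1, with medians of 63.0 and 57.6 for Daxx-KO against 0 and 19.2 for WT. Mice of both sexes were used in the study, and the sex of these mice was not tested as a factor.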

How the results depend on the processing

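Gained (84810) and lost (68883) sites were counted again under other settings. Pairing the libraries by replicate number, as a replicate block, gave 85265 gained and 69227 lost sites. The numbers do not mark shared mice, and deviations of same-numbered libraries correlated at 0.0014 over sites. Leaving out 1 library in turn gave 85142 to 86514 gained and 69119 to 70451 lost sites, promoter shares of 9.71 to 9.85% and 3.05 to 3.34%, word shares of 3.73 to 3.76% and 4.82 to 4.84%, and 1135 to 1158 gained and 1113 to 1139 lost sites in all lists. Shares of gains among overlaps, for gained and lost sites, were then 86.5 to 86.7% and 37.1 to 38.0% for H3.3, 30.1 to 30.2% and 34.8 to 35.03% for H3K27ac, and 40.2 to 40.3% and 42.1 to 42.2% for later Pu.1.

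A separation of at least 2 left 27263 gained and 36203 lost sites, promoter shares of 11.1% and 2.59%, the word in 3.40% of gains, and 348 gained and 587 lost sites in the lists. Shares of gains were then 92.8% and 31.2% for H3.3, 32.4% and 38.0% for H3K27ac and 41.8% and 43.9% for later Pu.1. Sites masked over less than 50% gave promoter shares of 11.9% and 3.28%, the word in 3.91% of gains, 84.0% and 38.0% for H3.3 and 28.9% for H3K27ac at gains. Joining sites within 1 kb gave a promoter share of 9.95% and 86.3% for H3.3 at gains, and the word in 4.20% and 5.11%. Promoters of 3 kb held 16.0% and 7.05%, and of 250 bp 6.96% and 1.49%. GGAAGT was in 29.0% and 34.0%, and GAGGAAGT in the central 300 bp in 1.82% and 2.41%. Within gene bodies or 10 kb the lists held 744 gained and 407 lost sites.

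Scaling by mean reads per window, chosen after seeing the data, left 18530 losses in neither direction and moved gains from 55.2% to 62.7% of sites with a direction. At the remaining losses, the promoter share was 2.70% and shares of gains were 33.1% for H3.3, 36.1% for H3K27ac and 43.0% for later Pu.1. With the same lower limit for both genotypes, also chosen after seeing the data, a separation of at least 2 left 27263 gained and 36203 lost sites under the deposited scaling and 59252 and 11978 under mean reads. Of 89 named sites 86 kept their order, and Junb, Cd34 and the lost Klf1 site did not. Gained minus lost sites reversed in 12 cases, namely under this scaling for myeloid transcription factors (65), neutrophil granule genes (8) and B-lineage genes (25), within gene bodies or 10 kb for the same lists (58, 15 and 38) and developmental regulators (6), and at a separation of 2 for myeloid receptors (-7), stem and progenitor (-26), T-lineage (-9), interferon (-5) and inflammatory genes (-5). The causes were not tested. Median log2 ratios with a pseudocount of 5 were 1.31 and -1.40. The planned count models were not run, because the values are normalized counts, listed 2 to a cell, of sites already selected on this contrast. The depth of WT 2, where 1 read is worth 3.20 normalized counts, limits the values of gained sites.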

Other observations

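Gene families were counted by symbol, a choice made after the main values had been seen. Hox genes, which pattern the body axis and in part act in haematopoietic progenitors, had 50 gained and 22 lost Pu.1 sites (69.4% gains). The median GC content of these sites was 53.0%, and over all sites at 50 to 55% GC, gains were 68.5%. Of 39 Hox genes, 18 (46.2%) had a gained promoter and 6 (15.4%) a lost one, which 9.39% of all genes had. Ribosomal protein genes had 338 gained and 172 lost sites, with a gained promoter at 34.2% of 79 genes, close to the 33.6% over all genes. Olfactory receptor genes, silent in blood and poor in GC, had 502 gained and 486 lost sites, with a gained promoter at 6.48% and a lost one at 9.94% of 1127 genes. Vomeronasal receptor genes, a further sensory family, had 335 gained and 197 lost sites for 326 genes. Zinc finger genes named Zfp had a gained promoter at 29.4% and a lost one at 10.4% of 385 genes.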
